A study of Mus musculus with 3 samples.

Results

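Hox cluster genes were examined in single mouse embryonic stem cells, which are pluripotent cells derived from the blastocyst. They were taken as all protein-coding genes named Hoxa, Hoxb, Hoxc or Hoxd with a position number, and 38 of the 39 such genes in the annotation were measured among 29267 mouse genes. The remaining gene was not analysed here. All cells carried the alleles Mll1fl/fl and Cre-ER TM (a tamoxifen-inducible Cre) on C57BL/6J, and each of 3 plates (chips) held 3 cell types: Mll1fl/fl control cells (called control), Mll1-/- cells (deleted) and cells under Mll1 inhibition (inhibited). Inhibitor, dose, time since deletion and deleted exons are not stated in the labels. Whether the plates hold separate cultures is not stated either, and p-values therefore measure the spread between these plates, which may be technical.

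Hox genes encode homeodomain transcription factors that specify position along the head-to-tail axis of the embryo. They lie in clusters named HoxA to HoxD, in which genes with low position numbers are active early and towards the head and genes with high numbers later and towards the tail. MLL1, encoded by Kmt2a, is a histone H3 lysine 4 methyltransferase known for keeping Hox genes active in later tissues, whereas Polycomb complexes hold them silent in embryonic stem cells. The CXXC domain of MLL1 binds CpG dinucleotides that are not methylated.

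Wells were kept with at least 1000 detected genes and under 20% mitochondrial UMIs (unique molecular identifiers, each marking 1 captured molecule). This left 1513 control, 1310 deleted and 1590 inhibited wells. Their sums per plate and cell type, called libraries here, held 25914860 to 43773924 UMIs, with a median of 23556 to 58507 UMIs per well. Of the 10 pluripotency markers, Dppa5a had a UMI in 99.7% of kept wells, Pou5f1 in 71.4% and Nanog in 23.0%. Levels are given as CPM, the UMIs of a gene in 1000000 mouse UMIs. Kmt2a was at 49.6 to 56.2 CPM in the control libraries, 39.9 to 62.9 in the deleted and 39.5 to 46.6 in the inhibited, and since the deleted exons are not given its counts do not check the genotype. Among kept wells, 1040 of 3260 well barcodes occurred on 2 or more plates, and no barcode stood at more than 1 chip position. Over 9 libraries the mitochondrial share of UMIs was 3.63 to 4.96%, and on every plate the deleted library exceeded the control library. Its part in the Hox values was not tested.

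CpG content was read in the RefSeq promoter windows (GRCm38.p6, 250 bases before to 50 after the transcription start), because of the CpG binding of MLL1. Such a window was matched for 21 of the 38 genes, and it held 4 to 45 CpG (median 14) against a median of 7 in all 27025 promoters. At least 10 CpG were present in 15 of the 21 windows and in 43.9% of all promoters. The motif searched was CG, which reads the same on both strands. Below are the 250 bases before the start of 4 genes with full values further on, chosen to show different CpG counts, with each CG in capitals. Hoxd13 (chr2:74667975-74668224, plus strand) had 31 CpG and Hoxa5 (chr6:52204588-52204837, minus strand) had 28, whereas the neighbours Hoxa9 (chr6:52227371-52227620, minus strand) and Hoxa10 (chr6:52240855-52241104, minus strand) had 3 and 7. In the full windows, with the 50 bases after the start, the same genes had 37, 29, 4 and 12 CpG. Hoxa10 was thus among the 15 windows with at least 10.
Hoxd13: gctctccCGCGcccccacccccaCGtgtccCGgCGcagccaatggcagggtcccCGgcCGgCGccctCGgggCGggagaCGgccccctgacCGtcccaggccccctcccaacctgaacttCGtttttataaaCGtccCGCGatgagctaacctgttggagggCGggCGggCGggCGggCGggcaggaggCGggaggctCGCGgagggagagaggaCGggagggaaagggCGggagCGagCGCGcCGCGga
Hoxa5: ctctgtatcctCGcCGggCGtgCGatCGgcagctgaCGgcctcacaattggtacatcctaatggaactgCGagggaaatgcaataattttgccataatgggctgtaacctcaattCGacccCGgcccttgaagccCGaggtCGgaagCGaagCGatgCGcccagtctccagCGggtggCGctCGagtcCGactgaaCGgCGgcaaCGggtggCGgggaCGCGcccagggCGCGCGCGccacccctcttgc
Hoxa9: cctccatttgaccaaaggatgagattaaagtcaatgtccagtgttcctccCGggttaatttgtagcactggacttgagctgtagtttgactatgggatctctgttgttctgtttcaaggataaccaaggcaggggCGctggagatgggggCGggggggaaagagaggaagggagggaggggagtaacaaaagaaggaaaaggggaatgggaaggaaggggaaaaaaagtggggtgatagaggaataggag
Hoxa10: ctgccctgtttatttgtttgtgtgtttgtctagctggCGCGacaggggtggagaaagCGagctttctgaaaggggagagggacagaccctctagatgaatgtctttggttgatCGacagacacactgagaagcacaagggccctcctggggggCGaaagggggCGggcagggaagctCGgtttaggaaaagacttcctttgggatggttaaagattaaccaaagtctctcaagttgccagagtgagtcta
No methylation or binding was measured in these cells, and the counts of CG describe the sequence only.

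Hox transcripts were rare in all 3 cell types. The 38 genes together gave 12307 of 320604937 UMIs, or 38.4 CPM. In the order of plates 1, 2 and 3, used for all values below, control libraries had a sum of 37.8, 37.8 and 32.3 CPM. Deleted libraries had 33.0, 35.1 and 51.0 CPM, and inhibited libraries 48.1, 38.7 and 29.0 CPM. The groups overlapped, with means of 35.9 ± 3.18 (SD, n = 3 plates) in control, 39.7 ± 9.84 in deleted and 38.6 ± 9.55 in inhibited cells. Within plates, the log2 ratio of deleted to control was -0.20, -0.11 and 0.66, and that of inhibited to control was 0.35, 0.03 and -0.15, so the sign differed between plates in both. Without the well with the most Hox UMIs in each library, the deleted library of plate 3 was at 44.5 instead of 51.0 CPM and the other 8 lay between 27.8 and 44.9. The 15 wells without cells and the 15 wells of control RNA held 0 Hox UMIs, but with 2719 and 20306 UMIs in all they allow up to 1103 and 148 CPM (3 counts of the total) and cannot set a background at this level. No cell type that should lack Hox transcripts was on the plates.

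By cluster, HoxA took 45.8% of the Hox UMIs, HoxB 30.3%, HoxC 18.2% and HoxD 5.72%. Per kilobase of exon, over all kept wells, the level was 0.570 CPM for HoxA, 0.441 for HoxB, 0.336 for HoxC and 0.0999 for HoxD. HoxA was at 18.2, 22.0 and 17.5 CPM in control cells, 16.4, 15.1 and 16.1 in deleted and 18.8, 20.3 and 14.1 in inhibited cells. The 3 deleted values lay below the 3 control values. HoxC was at 5.73, 4.06 and 4.28 CPM in control, 6.37, 5.67 and 12.4 in deleted and 11.1, 6.04 and 6.19 in inhibited cells. The 3 inhibited values lay above the 3 control values, and both types were above control on each plate. After removal of the well with the most Hox UMIs per library these groups overlapped: HoxA spanned 15.7 to 21.4 CPM in control and 13.4 to 16.4 in deleted cells, and HoxC spanned 2.93 to 5.15 in control and 4.82 to 8.31 in inhibited cells. Within plates, HoxC stayed above control on all 3 plates in both types (deleted 6.41, 5.66 and 5.35 CPM, inhibited 8.31, 4.82 and 4.84, control 5.15, 2.93 and 4.32), whereas HoxA in deleted cells was below control on plates 1 and 2 and above it on plate 3. The removed wells were chosen by all Hox UMIs, not by HoxC. On plates 1 and 2 their removal lowered HoxC in control cells (from 5.73 and 4.06 CPM) but hardly moved it in deleted cells (from 6.37 and 5.67). On plate 3 deleted cells fell from 12.4 CPM. The HoxC comparison after removal therefore depends in part on which wells were taken out. HoxB (6.37 to 10.6 CPM in control, 8.15 to 19.8 in deleted, 7.26 to 16.5 in inhibited) and HoxD (1.78 to 4.13, 1.22 to 2.68 and 1.46 to 2.01) overlapped between types. Within plates, HoxD was lower in deleted than control cells on all 3 (2.05 against 3.24, 1.22 against 1.78 and 2.68 against 4.13 CPM). No test was run on a sum over genes.

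**Figure D1:**
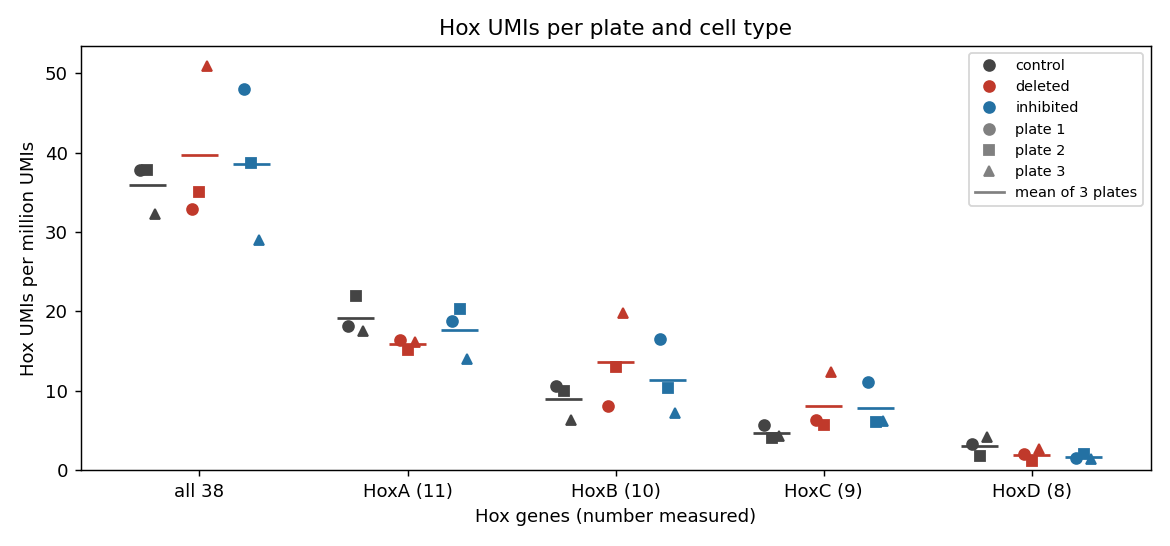
Hox level in CPM (linear axis) for all 38 genes and for each cluster. Each point is 1 plate of 1 cell type and each line the mean of 3 plates. For all 38 genes the types overlap, from 29.0 to 51.0 CPM, and HoxA has the highest values of the clusters in 8 of 9 libraries, HoxB being higher (19.8 against 16.1 CPM) in deleted cells of plate 3.

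Order along the clusters did not follow position number. Genes at position 7 together were at 2.13 CPM per kilobase of exon and those at position 13 at 0.879, while positions 3 and 12 were at 0.0158 and 0.0210. Hoxa7 led all genes on this scale (2.20 CPM per kilobase), and Hoxb7 (1.98), Hoxb13 (1.71), Hoxc13 (1.46) and Hoxb9 (1.24) were also among the highest. The 12 genes with the most UMIs held 84.7% of all Hox UMIs. At the other end, 20 of 38 genes had fewer than 100 UMIs in all kept wells, down to 10 for Hoxb5, 11 for Hoxc12 and 13 for Hoxd12, and no member was at 0. UMIs in all 9 libraries were found for 21 genes.

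**Figure D2:**
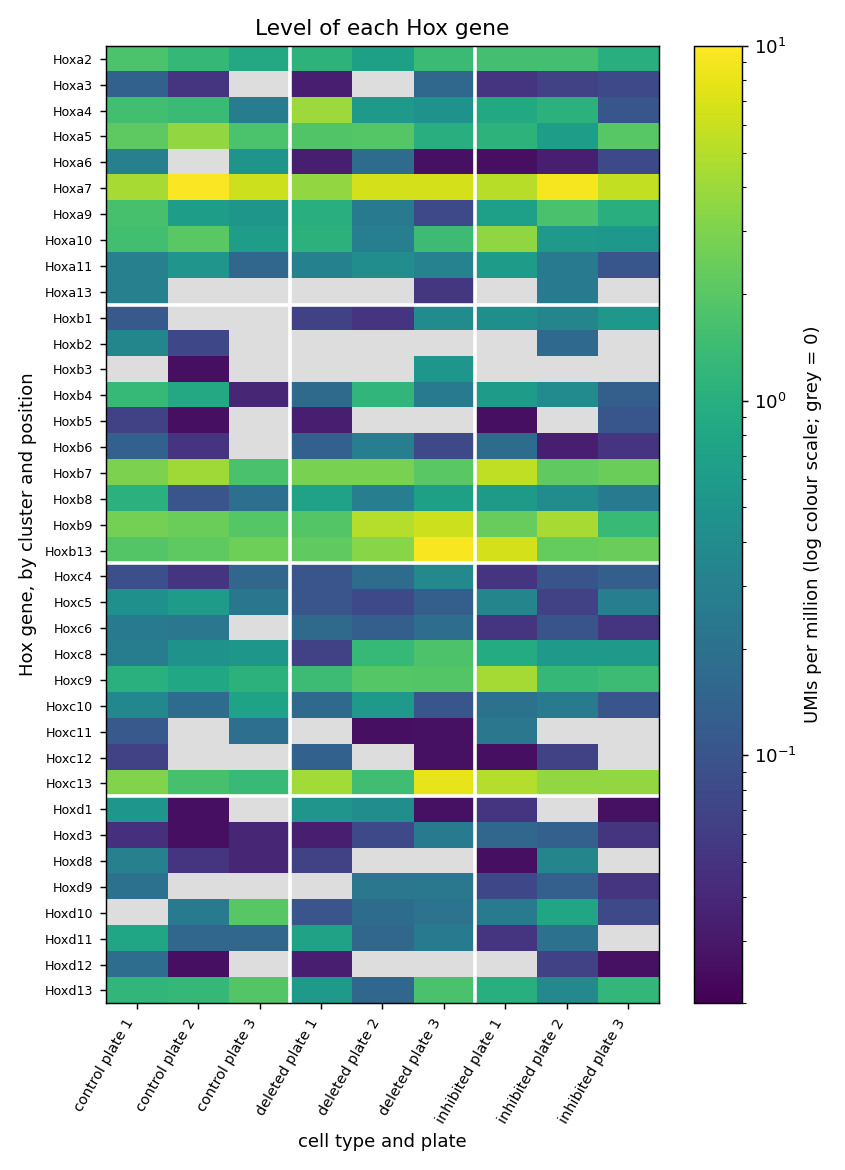
CPM (logarithmic colour scale, grey for 0) of 37 Hox genes (rows, by cluster and position) in 9 libraries (columns, by cell type and plate). Hoxa7, Hoxb7, Hoxb9, Hoxb13 and Hoxc13 are bright in every library, and rows such as Hoxb2, Hoxb3 and Hoxa13 are 0 in most.

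Of the 38 genes, 22 passed the filter on low counts and were tested across all genes with edgeR's quasi-likelihood test, with plate as a block. None was called at a Benjamini-Hochberg adjusted p under 0.05 between deleted and control, inhibited and control, or inhibited and deleted cells. Over all 17119 genes tested, 0.035% were called in the first comparison, 0.00584% in the second and 0.31% in the third, so few calls could fall among 22 genes. At an unadjusted p under 0.05 there were 0, 1 and 1 Hox genes in edgeR, where 10.3, 9 and 13.7% of all genes passed, and the Hox share was below that background in each. DESeq2 gave an adjusted p to 5, 0 and 15 of the 22 Hox genes, so it could make no call in inhibited against control. It called 0 of the 5 and 0 of the 15, beside 3.01 and 4.78% of all genes with an adjusted p (6.15% in inhibited against control). At an unadjusted p under 0.05 it had 2, 2 and 1 of 22 Hox genes, where 12.1, 10.7 and 16.1% of all genes passed. The fitted log2 difference was positive for 12 of 22 genes in deleted against control (median 0.12), 13 in inhibited against control (median 0.08) and 11 in inhibited against deleted (median -0.02), where the medians of all genes were 0.00 in each. The median standard error (SE) of a Hox log2 difference was 0.72 in deleted against control, beside 0.30 for all genes. The 16 genes left out of the test had 10 to 116 UMIs.

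Among the anterior genes, Hoxa2 acts in hindbrain patterning. Hoxa2 (ENSMUSG00000014704, mm10 chromosome 6, 52162417 to 52164831, minus strand) was at 1.74, 1.24 and 0.849 CPM in control, 1.12, 0.676 and 1.38 in deleted, and 1.58, 1.58 and 0.993 in inhibited cells, with overlap between the groups. Its log2 difference was -0.23 ± 0.57 after deletion (edgeR adjusted p = 0.943) and 0.19 ± 0.56 under inhibition (adjusted p = 0.961). These values moved, to -0.75 after deletion without plate 3 and, under inhibition, to 0.46 without the deepest 5% of wells and 0.068 without plate 2. It was seen in 171 of 4413 wells.

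Hoxb1, which specifies hindbrain segment identity, was the 1 gene with an unadjusted p under 0.05 in inhibited against control. Hoxb1 (ENSMUSG00000018973, chromosome 11, 96365752 to 96368256, plus strand) had 5, 0 and 0 UMIs in control, 2, 2 and 15 in deleted and 17, 10 and 21 in inhibited libraries. The 3 inhibited counts were above the 3 control counts. They came from few wells: 3 control, 5 deleted and 6 inhibited wells held all 72 UMIs, and the top inhibited well on plates 1, 2 and 3 gave 8, 10 and 21 of them. Without the top well of each library, Hoxb1 was at 0 in 6 of 9 libraries, among them the inhibited ones of plates 2 and 3. The fitted log2 difference was 3.56 ± 1.36, which with so few control UMIs depends on the fit's handling of low counts, and edgeR's adjusted p was 0.478. Without plate 1, which held all the control UMIs, it was 7.03.

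Among the central genes, which pattern the neck and trunk, Hoxa7 had the most UMIs of any member. Hoxa7 (ENSMUSG00000038236, chromosome 6, 52214491 to 52221854, minus strand) was at 4.48, 9.60 and 6.25 CPM in control cells, 3.61, 6.63 and 6.70 in deleted and 5.17, 9.23 and 5.59 in inhibited cells. The 3 types overlapped and plate 2 was the highest plate in control and inhibited cells. Its log2 difference, the most precise of the tested members, was -0.24 ± 0.27 after deletion (edgeR adjusted p = 0.841) and 0.05 ± 0.27 under inhibition (adjusted p = 0.979). The deleted value was -0.074 without plate 2, -0.44 without plate 3 and -0.039 without the deepest 5% of wells. Exons of the antisense RNA Hoxaas3 overlap Hoxa7, and no source used here states whether counting used the strand. Hoxb7 (ENSMUSG00000038721, chromosome 11, 96286623 to 96290162, plus strand) was at 2.97, 4.16 and 1.66 CPM in control, 2.90, 2.86 and 2.04 in deleted and 5.56, 2.21 and 2.46 in inhibited cells. A single inhibited well on plate 1 held 107 of the 215 Hoxb7 UMIs of that library, and without it the value was 2.81.

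Hoxa5, known for its role in lung and neck development, and Hoxa4, a neighbour of it in the cluster, were lower in level. Hoxa5 (ENSMUSG00000038253, chromosome 6, 52201754 to 52204587, minus strand) was at 2.15, 3.62 and 1.74 CPM in control, 1.84, 1.95 and 1.01 in deleted and 1.11, 0.638 and 1.99 in inhibited cells. The deleted value was below the control value on each plate, although the groups overlapped and the log2 difference of -0.64 ± 0.58 was not called (edgeR adjusted p = 0.778). Hoxa4 (ENSMUSG00000000942, chromosome 6, 52189671 to 52191753, minus strand) was at 1.51, 1.37 and 0.270 CPM in control, 3.99, 0.572 and 0.477 in deleted and 0.880, 1.07 and 0.105 in inhibited cells. The high deleted value on plate 1 was 1.82 without the 1 well that held 64 of its 117 UMIs.

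Posterior genes, which pattern the lower trunk, limbs and tail, took 44.5% of Hox UMIs for positions 9 to 13. Hoxb9 (ENSMUSG00000020875, chromosome 11, 96271457 to 96276595, plus strand) was at 2.72, 2.48 and 1.93 CPM in control, 1.91, 5.02 and 6.25 in deleted and 2.35, 4.46 and 1.31 in inhibited cells, with overlap between all types. Hoxc9 (ENSMUSG00000036139, chromosome 15, 102976439 to 102985099, plus strand) was at 1.03, 0.828 and 1.08 CPM in control, 1.43, 1.92 and 1.91 in deleted and 4.29, 1.24 and 1.41 in inhibited cells. All 6 values of deleted and inhibited cells were above the 3 control values. The log2 difference was 0.89 ± 0.56 after deletion (edgeR adjusted p = 0.648) and 1.16 ± 0.57 under inhibition (adjusted p = 0.592), neither of them called. The inhibited value was 0.52 without plate 1, and the deleted value was 0.34 without the deepest 5% of wells and 1.49 without the top Hox well of each library. In the inhibited library of plate 1 a single well held 110 of 166 Hoxc9 UMIs, and the control libraries of plates 2 and 3 were at 0.129 and 0.117 without their top wells. With the top Hoxc9 well of every library removed the groups overlapped (0.117 to 0.823 in control, 0.764 to 1.31 in deleted and 0.543 to 1.45 in inhibited cells). Within plates, inhibited cells then stayed above control (1.45 against 0.823, 0.543 against 0.129 and 0.972 against 0.117 CPM). Deleted cells were above control on plates 2 and 3 (1.31 and 0.916 CPM) and below it on plate 1 (0.764 CPM).

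Hoxa9 and Hoxa10, neighbours known as MLL1 targets in blood cells and leukaemia, were both low. Hoxa9 (ENSMUSG00000038227, chromosome 6, 52223100 to 52231089, minus strand) was at 1.62, 0.647 and 0.540 CPM in control, 0.989, 0.260 and 0.0795 in deleted and 0.673, 1.68 and 0.993 in inhibited cells. Deleted cells were below control cells on each plate, the groups overlapped, and the difference was not called (-1.33 ± 0.83, edgeR adjusted p = 0.646). Between inhibited and deleted cells it was the 1 Hox gene with an unadjusted p under 0.05 (log2 difference 1.98 ± 0.88, adjusted p = 0.364), with the inhibited value above the deleted value on plates 2 and 3 and below it on plate 1. The deleted libraries held only 29, 10 and 3 Hoxa9 UMIs. Single inhibited wells gave 20 of 50 UMIs on plate 2 and 20 of 38 on plate 3. Without the top Hoxa9 well of each library, inhibited cells were at 0.493, 1.01 and 0.471 CPM and deleted cells at 0.547, 0.0521 and 0.0531. Hoxa10 (ENSMUSG00000000938, chromosome 6, 52231197 to 52240854, minus strand) was at 1.51, 2.02 and 0.656 CPM in control, 1.09, 0.286 and 1.405 in deleted and 3.54, 0.571 and 0.549 in inhibited cells. One well held 73 of the 137 UMIs behind the highest of these values. Exons of Mir196b overlap Hoxa9.

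The genes at position 13, the last of each cluster, were among the more abundant except Hoxa13, which had 23 UMIs. Hoxb13 (ENSMUSG00000049604, chromosome 11, 96194316 to 96197447, plus strand), a prostate and tail gene, was at 1.90, 2.15 and 2.55 CPM in control, 2.22, 3.35 and 9.51 in deleted and 6.75, 2.32 and 2.40 in inhibited cells. Deleted cells were above control cells on each plate, and the difference of 1.08 ± 0.59 was not called (edgeR adjusted p = 0.584). Without the deleted well of plate 3 that held 198 of 359 UMIs, that library was at 4.33. The log2 difference was 0.47 without plate 3 and 0.65 without the deepest 5% of wells. Hoxc13 (ENSMUSG00000001655, chromosome 15, 102921103 to 102928814, plus strand), which acts in hair and nail, was at 3.08, 1.66 and 1.35 CPM in control, 4.19, 1.48 and 7.87 in deleted and 5.02, 3.62 and 3.63 in inhibited cells. The inhibited values were all above the control values, without a call (1.08 ± 0.51, edgeR adjusted p = 0.581). Without the top Hoxc13 well of each library the ranges overlapped, at 0.735 to 2.61 in control and 2.26 to 3.28 in inhibited cells. Within plates the inhibited value stayed above control (3.28 against 2.61, 2.39 against 1.25 and 2.26 against 0.735 CPM). The log2 difference was 0.71 without the well with the most Hox UMIs of each library. A single deleted well of plate 3 held 268 of 297 Hoxc13 UMIs, and without it the library was at 0.780, below the control library of that plate at 1.35. The log2 difference of Hoxc13 in deleted against control was 1.02 ± 0.53 (edgeR adjusted p = 0.565). It was -0.14 without the well with the most Hox UMIs of each library. Hoxd13 (ENSMUSG00000001819, chromosome 2, 74668310 to 74671599, plus strand), a limb and digit gene, was at 1.19, 1.24 and 1.89 CPM in control, 0.579, 0.156 and 1.67 in deleted and 0.983, 0.369 and 1.23 in inhibited cells. It was lower than control on each plate in both types, and not called (deleted -1.31 ± 0.70, adjusted p = 0.577; inhibited -0.89 ± 0.68, adjusted p = 0.770). Without plate 2 these were -0.54 and -0.38, and without plate 3 the deleted value was -2.02. Single wells of plate 3 held 32 of 49 Hoxd13 UMIs in control, 45 of 63 in deleted and 29 of 47 in inhibited cells. Without the top Hoxd13 well of each library, control cells were at 0.823, 0.623 and 0.659 CPM. Deleted cells were then at 0.375, 0.130 and 0.480 and inhibited cells at 0.546, 0.202 and 0.471, below control on each plate.

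Beyond the genes with the most UMIs or an unadjusted p under 0.05, 24 genes had 10 to 236 UMIs each. The most abundant of them were Hoxc8 with 236 UMIs in 39 wells, Hoxb4 with 192 in 40 and Hoxb8 with 158 in 81, all trunk genes of the central positions. Hoxc8 was at 0.274, 0.491 and 0.540 CPM in control, 0.0682, 1.27 and 1.75 in deleted and 0.906, 0.571 and 0.575 in inhibited cells. The inhibited values were all above the control values and the deleted values spanned both, without a call. A single well held 19 of the 22 inhibited Hoxc8 UMIs on plate 3. Without the top Hoxc8 well of each library, that value was 0.0785, below control at 0.194 on the same plate. Hoxb3 showed how few cells can carry a count: 20 of its 21 UMIs came from 1 deleted well on plate 3.

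Hox UMIs were concentrated in few wells. Of 4413 kept wells, 2634 had no Hox UMI, 1184 had UMIs of 1 Hox gene, 374 of 2, 139 of 3, 48 of 4 and 34 of 5 or more. The number of gene-and-well detections was 2733, and 50.4% of them were single UMIs that held 11.2% of the Hox UMIs. Detections of 10 or more UMIs made up 10.9% of the total and held 54.9% of the Hox UMIs. The 160 wells with the most Hox UMIs, 3.63% of wells, reached 50% of the Hox UMIs. All UMIs were unevenly spread too: the deepest of 4 equal groups of wells held 64.8% of Hox UMIs and 68.5% of all UMIs. The 50 wells with the most Hox UMIs had a median of 228451 UMIs in all. In these 50 wells the leading gene gave a median of 90.5% of the well's Hox UMIs. Among the 108 values of the 12 leading genes in 9 libraries, 22 had 50% or more of their UMIs in 1 well.

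The same unevenness was measured in other genes of like abundance. For 18 Hox genes with at least 100 UMIs, the median number of UMIs per positive well was 4.55 (middle 50%: 3.62 to 6.03) and the median share in the top well 11.4% (7.03 to 17.8%). For all 7434 genes with 100 to 2032 UMIs the medians were 4.16 (middle 50%: 3.08 to 5.19) and 9.34% (5.24 to 16.3%), so each of these Hox values was above its counterpart.

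**Figure D3:**
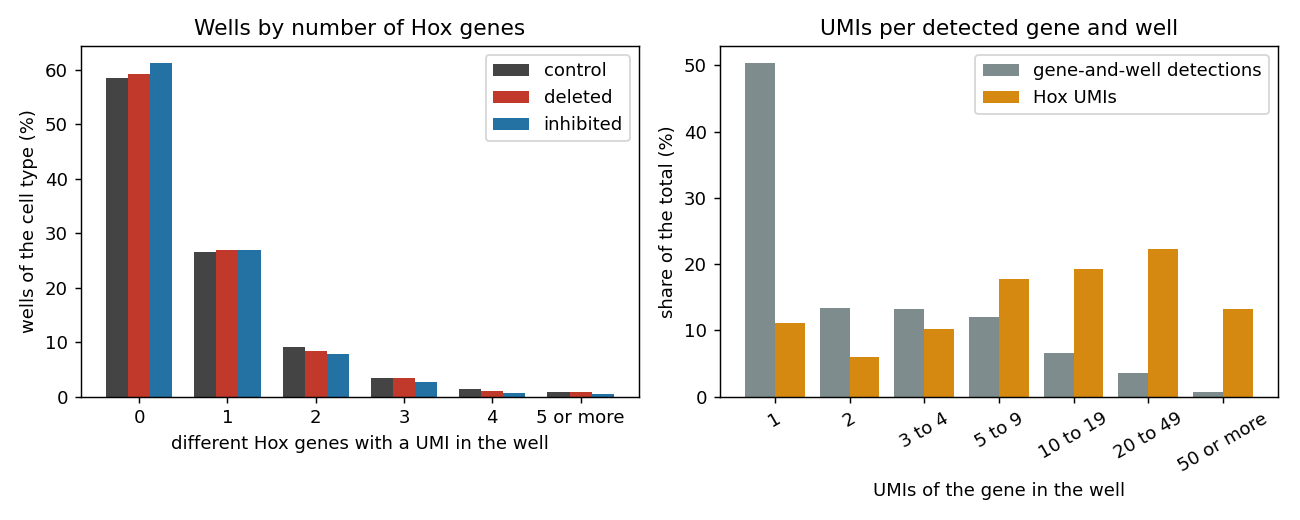
Left, share of wells of each cell type (%) by the number of different Hox genes with a UMI; right, share (%) of gene-and-well detections and of Hox UMIs by the UMIs of the gene in the well. The 3 types look alike on the left (58.4 to 61.3% of wells at 0), and on the right detections of 1 UMI are 50.4% of detections and 11.2% of UMIs.

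The share of wells with any Hox UMI followed the depth of the well. It was 43.6% (95% exact Clopper-Pearson interval 39.6 to 47.6%), 41.0% and 38.8% in control, 41.8, 46.9 and 36.2% in deleted and 43.9, 35.5 and 36.5% in inhibited libraries. Such intervals cover counting error only. The library with the highest share, deleted cells of plate 2, also had the highest median depth (58507 UMIs), and the deleted library of plate 3 had the lowest (23556). Not all libraries kept this order. Control cells of plate 3 had a median of 42339 UMIs and a share of 38.8%. The lowest share, 35.5%, was in inhibited cells of plate 2, with a median of 28057 UMIs. With each well thinned to 5869 UMIs and 442 shallower wells left out, the share was 15.2, 15.8 and 10.9% in control, 15.5, 14.8 and 12.02% in deleted and 17.6, 14.5 and 14.2% in inhibited cells. Means were 13.97 ± 2.67% (SD, n = 3), 14.1 ± 1.84% and 15.4 ± 1.84%, and the groups overlapped before and after thinning. The number of wells left in each library was 312 to 579.

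Sorted by depth, wells in the shallowest group held a Hox UMI in 16.8% of cases, and those in the next groups in 30.2, 48.8 and 65.5%. The level in CPM was 40.7, 42.5, 43.2 and 36.3 in the same order.

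**Figure D4:**
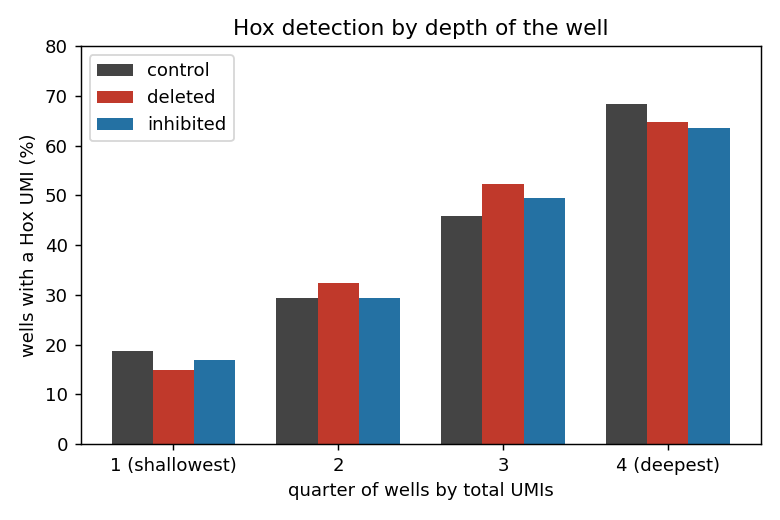
Share of wells with a Hox UMI (%) in 4 equal groups of wells ordered by total UMIs, per cell type. Shares climb from 14.8 to 18.6% in the shallowest group to 63.4 to 68.4% in the deepest, and the order of the cell types changes between groups.

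Most wells with a Hox UMI held UMIs of 1 Hox gene only. Of 1779 wells with any Hox UMI, 595 (33.4%) had 2 or more Hox genes. These wells had a median of 113004 UMIs, against 58855 in wells with 1 Hox gene and 22600 in wells with 0. Over all 703 pairs of genes, both were seen in 1.57% of the wells that had either, counted over pairs, and 339 pairs were never seen together. Direct neighbours in a cluster shared 3.23% (34 pairs), other pairs of the same cluster 1.74%, genes of the same position in different clusters 1.89% and the remaining pairs 1.38%. In the deepest group of wells these shares were 4.31, 2.18, 2.52 and 1.87%. They are descriptions, since the pairs share wells and genes. Such shares also depend on how many wells held each gene. No expected share was computed, so they do not show whether Hox genes met more or less often than their detection rates imply.

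Hoxc8 and Hoxc9, neighbours that pattern the thorax, had the highest overlap among pairs seen together in at least 5 wells. They were together in 13 wells, which is 33.3% of 39 Hoxc8 wells and 16.9% of 77 Hoxc9 wells, whereas Hoxc9 was seen in 1.46% of wells without Hoxc8. In the deepest group Hoxc9 was in 40.0% of 15 Hoxc8 wells and in 2.67% of the others. The 13 wells lay on all 3 plates, with 2 control, 6 deleted and 5 inhibited wells. Hoxa9 and Hoxa10 were also together in 13 wells, 17.6% of 74 Hoxa9 wells and 11.6% of 112 Hoxa10 wells. Of these, 10 were control, 0 deleted and 3 inhibited wells. Deleted cells also had the fewest wells with either gene: Hoxa9 was in 32 control, 14 deleted and 28 inhibited wells, and Hoxa10 in 48, 28 and 36. The split of shared wells by type was not tested. Pairs of more widely detected genes were together in more wells but shared less of them: Hoxb9 and Hoxb13 in 32 wells (6.37% of wells with either) and Hoxb9 and Hoxc13 in 29 wells (6.86%).

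**Figure D5:**
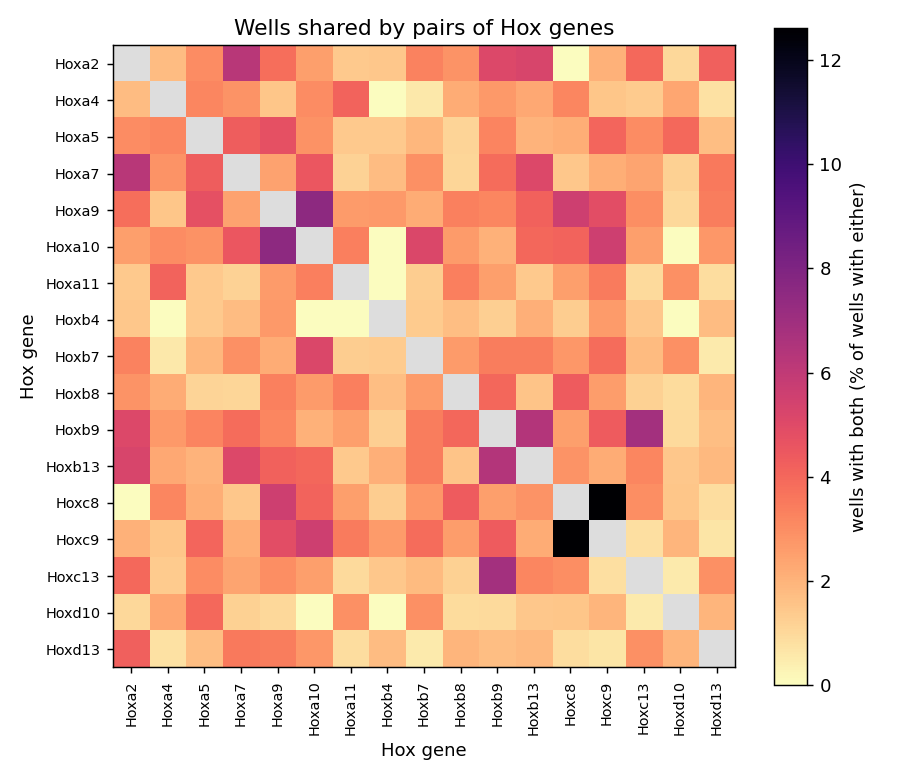
Wells with UMIs of both genes as a percentage of wells with either (colour), for 17 of the 18 Hox genes with at least 100 UMIs. Hoxc8 with Hoxc9 (12.6%) and Hoxa9 with Hoxa10 (7.51%) are the darkest neighbours, and most other pairs are under 4%.

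A few wells held many Hox genes. The well with the most, a control well on plate 1 with 121914 UMIs, had 77 UMIs of 12 genes: Hoxa5, Hoxa9, Hoxa10, Hoxa11, Hoxb8, Hoxb9, Hoxc6, Hoxc8, Hoxc9, Hoxc10, Hoxc11 and Hoxd8. Of these, 4 were HoxA, 2 HoxB, 5 HoxC and 1 HoxD genes. The same well held 942 UMIs of the 10 pluripotency markers and 0 of the 16 fibroblast markers. It also held 3 UMIs of mesoderm, 5 of neural and 4 of primitive endoderm markers. The fibroblast markers together were at 15.9 CPM in wells with 0 Hox genes, so their absence from 1 well of this depth carries little information. Of the 34 wells with 5 or more Hox genes, 14 were control, 12 deleted and 8 inhibited, 6 drew on all 4 clusters, and none on 1 cluster alone.

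Marker lists of other cells were compared between wells by the number of Hox genes, with values summed over wells. The 10 pluripotency markers were at 6062 CPM in wells with 0 Hox genes, 5905 with 1, 5171 with 2 or more and 5241 with 5 or more. Dppa5a alone gave 1589559 of the 1851465 UMIs of this list, so the sum mostly follows 1 gene. On single plates it was 3344 to 6718 CPM in wells with 5 or more Hox genes. The 16 fibroblast markers were at 15.9, 16.9, 21.4 and 28.6 CPM, and in wells with 5 or more Hox genes 8 of the 16 were at 0, including Col1a1, Col1a2, Col3a1, Thy1 and Pdgfrb. Those markers were rare in all kept wells (0.0437 to 0.699 CPM), and the other 8 markers, among them S100a4 and Twist1, made up the sum. On single plates the fibroblast sum in those wells was 2.67 to 54.6 CPM. The trophectoderm markers were at 882, 957, 1136 and 491 CPM, and the primitive endoderm markers at 55.2, 77.6, 74.1 and 38.8 CPM. In wells with 5 or more Hox genes their ranges over single plates were 115 to 805 and 19.05 to 45.6 CPM. Krt18 gave 234528 and Krt8 65807 of the 312212 UMIs of the trophectoderm list. Mesoderm markers (14.7, 8.88, 12.9 and 13.9 CPM), neural markers (128, 115, 116 and 115 CPM) and blood markers (6.58, 5.54, 5.40 and 4.37 CPM) are given in the same order. The Cdx, Gsx and Pdx1 genes, homeobox genes outside the Hox clusters, and the Evx genes, which flank them, were together at 10.7, 11.6, 14.4 and 23.5 CPM (17.6 to 27.8 on single plates in the last group). The part of these lists in the Hox values was not tested. Wells also differed in depth, as given above.

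Outside the clusters, the genes with the highest ratio of level in wells with 2 or more Hox genes to level in the other kept wells, among 1289 genes at 10 CPM or more in the former wells that were higher there on all 3 plates, were Marveld3, Acta2, Ets1, Rin3, Itga1, P2rx4, 6720427I07Rik, Sprr2a1, Adamts1 and Cdh2. Their ratios ran from 3.10 for Marveld3 to 2.03 for Cdh2. Marveld3, a tight junction protein, had 29.5% of its UMIs in these wells in a single well. Cdh2, which encodes N-cadherin, had a UMI in 19.2% of wells with 2 or more Hox genes and 9.17% of the other wells. Its ratios on plates 1, 2 and 3 were 3.24, 1.04 and 2.27. The wells with 2 or more Hox genes were also deeper (median 113004 UMIs, against 58855 with 1 Hox gene), so these shares are not at equal depth. All 10 were below 10 CPM in the other wells (3.41 to 8.06 CPM), so they met the minimum only through the wells where they were high. They were also chosen by this ratio, so no test was made.

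Genes around the Hox pathway gave few calls. Against the 0.035, 0.00584 and 0.31% of all genes called by edgeR, counts of 0 in lists this short carry little information. Of 10 TALE cofactors, which bind DNA together with Hox proteins, 0 were called in each comparison. Meis1 was at 18.7 to 25.3 CPM in control, 15.2 to 22.8 in deleted and 14.2 to 18.3 in inhibited cells (inhibited against control -0.38 ± 0.21, edgeR adjusted p = 0.644). Of 8 Cdx, Gsx, Pdx1 and Evx genes 6 were tested and 0 called. Cdx2, a direct activator of Hox genes, was at 3.38, 3.13 and 2.28 CPM in control, 6.17, 3.35 and 5.96 in deleted and 5.02, 3.89 and 3.40 in inhibited cells. Deleted cells were above control cells on each plate, but the log2 difference of 0.80 ± 0.35 was not called (adjusted p = 0.468). Gsx1 differed in the other direction, at 2.06, 4.37 and 3.13 CPM in control and 0.954, 1.07 and 2.76 in deleted cells (-1.15 ± 0.47, adjusted p = 0.435), and Pdx1 was at -0.75 ± 0.56 (adjusted p = 0.723). The median log2 difference of the 6 genes was 0.46 after deletion and 0.28 under inhibition, against 0.00 for all genes.

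Of 10 measured noncoding genes of the clusters, 5 were tested and 0 called. Halr1, a long noncoding RNA beside HoxA, stood far above every Hox gene at 82.1 CPM over all kept wells and was seen in 39.4% of them. It was at 73.6, 96.0 and 118 CPM in control, 90.6, 72.0 and 81.8 in deleted and 57.6, 86.5 and 78.5 in inhibited cells (inhibited against control -0.31 ± 0.17, edgeR adjusted p = 0.627). Hoxaas3 was at 5.09, 2.20 and 0.540 CPM in control, 5.32, 2.60 and 6.10 in deleted and 5.23, 7.28 and 2.27 in inhibited cells, above control on each plate in both types and not called. Hotair had 4 UMIs and Hottip 9 in all kept wells.

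Retinoic acid induces Hox genes in embryonic stem cells. Of 15 genes of retinoic acid response 13 were tested and 0 called. Stra8, a retinoic acid target of germ cells, was at 23.7, 27.2 and 26.6 CPM in control, 21.1, 33.9 and 24.0 in deleted and 9.29, 10.7 and 15.1 in inhibited cells. The inhibited values were all below the others, with a log2 difference of -1.11 ± 0.19 against control (edgeR adjusted p = 0.223) and against deleted cells (adjusted p = 0.0521). Of 14 genes of the MLL1 complex and its partners and 14 Polycomb genes, 0 were called in any comparison. Dpy30, a core subunit of the MLL complexes, was at 1011, 1141 and 809 CPM in control and 897, 862 and 691 in deleted cells (-0.27 ± 0.07, adjusted p = 0.222). Pcgf2, a Polycomb subunit, was at 39.5, 24.8 and 50.4 CPM in deleted and 108, 49.8 and 55.5 in inhibited cells (inhibited against deleted 0.91 ± 0.21, adjusted p = 0.115).

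Of the 22 flanking genes of the clusters 21 were tested and 0 called, and Hnrnpa2b1, an RNA-binding protein gene near HoxA, came closest (inhibited against deleted 0.26 ± 0.05, edgeR adjusted p = 0.0717). Marker lists of other cell types gave 0 calls among pluripotency, fibroblast, mesoderm, neural, primitive endoderm and blood genes. In the trophectoderm list, 2 of 7 tested genes fell in inhibited against deleted cells, where 0.31% of all genes were called. They were the keratins Krt18 (-0.85 ± 0.11, adjusted p = 0.0185) and Krt8 (-0.89 ± 0.14, adjusted p = 0.0318). In deleted against control cells all 7 tested genes of this list, Cdx2 among them, had a positive log2 difference (median 0.60, all genes 0.00) and 0 were called. The lowest adjusted p there was 0.0563 for Krt18, at 0.75 ± 0.11.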

How the data were processed

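Single-cell RNA was sequenced from wells of 3 chips (plates 105102, 105106 and 105107, called 1, 2 and 3). Reverse transcription used SMARTScribe buffer and an oligo named RT E5, and libraries came from Nextera XT with modifications, per the labels' protocols. Mapping to mm10 and counting named STAR 2.5.2b, Subread 1.4.6-p1 and featureCounts, per the submitters' processing notes. The deposited tables hold raw UMI counts per gene and well, which the authors did not normalise, and the deposited report of each plate gives each well's type. No source used here states the strand setting or the annotation release. Reads overlapping several genes were tallied apart by the authors, at 5.55 to 5.80% of assigned and ambiguous reads, so overlapping Hox genes (15 of 38 share exon sequence with another gene) are uncertain. Rows that name no mouse gene (spike-in and other sequences, 0.646 to 0.752% of UMIs) were left out.

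Of 4610 typed wells 4413 were kept (at least 1000 genes, under 20% mitochondrial UMIs). Counts were summed per plate and type into 9 libraries, and levels are CPM (UMIs per 1000000 mouse UMIs). The summed counts were tested with edgeR 4.0.16 (R 4.3.3; TMM, filterByExpr, quasi-likelihood, plate as a block, Benjamini-Hochberg over all genes, threshold 0.05), tested first on simulated data. The plate block was used because all types were on every plate. Deviations correlated at 0.0782 to 0.141 within plates and -0.101 to 0.00858 between plates. Alternatives were DESeq2 1.42.0, no filter, no block, leaving out plates, thinned wells and other well filters. No doublet caller was run, and alternatives leave out the deepest 5% of wells. Gene places and exon lengths are from GENCODE M21 (GRCm38), promoters from RefSeq. Members and lists were chosen with earlier results of these data known. Full values are given for the 12 Hox genes with the most UMIs, of which 1 is not reported here, and for those with an unadjusted p under 0.05. From each other list up to 4 genes with the smallest p could be named, and the 10 genes outside the clusters with the highest ratio in wells with 2 or more Hox genes.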

Additional observations from a re-analysis of the deposited data

How the results depend on the processing

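No Hox gene was called in the 3 comparisons under any alternative run: DESeq2, no filter, no replicate block, each plate left out, thinned wells, all typed wells, wells with at least 2000 genes, and without the deepest wells or the top Hox wells. Thinning left 3 Hox genes to test, and DESeq2 gave an adjusted p to 5, 0 and 15 Hox genes, so that it has no value for inhibited against control. Calls over all genes moved widely. Against 6, 1 and 53 genes (deleted against control, inhibited against control, inhibited against deleted), DESeq2 called 325, 277 and 723, edgeR without the filter 179, 108 and 383, without the replicate block 0, 0 and 3, and with thinned wells 64, 91 and 187. With all typed wells 10 were called in deleted against control. Leaving out 1 plate gave 1 to 5, 0 to 0 and 0 to 73 calls; the cause was not tested. The plate pairing is from the labels, and the block changed no call of a Hox gene.

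The share of wells with a Hox UMI moved from 13.97, 14.1 and 15.4% (control, deleted, inhibited) to 41.1, 41.6 and 38.6% without thinning, 41.9, 37.3 and 40.2% when thinned to the median depth, 40.3, 39.9 and 37.6% over all typed wells and 43.9, 46.5 and 42.4% in wells with at least 2000 genes, the latter 2 not thinned. A Hox UMI was seen in 16.8% of wells in the shallowest depth group and 65.5% in the deepest, and the cause of these moves was not tested. Wells with 2 or more Hox genes fell from 33.4 to 12.5% of wells with any (73 of 583) after thinning.

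Of 182 alternative values of 26 log2 differences of named Hox genes, none was called (lowest adjusted p = 0.468) and 13 had the other sign; the cause was not tested. In the main fit, inhibited against control was 0.053 for Hoxa7, 0.13 for Hoxb9, 0.26 for Hoxb7, -0.27 for Hoxa10 and -0.66 for Hoxa4. Deleted against control was -0.14 for Hoxb7, -0.69 for Hoxa10, -0.23 for Hoxa2, 0.55 for Hoxa4 and 1.02 for Hoxc13. Leaving out 1 plate in turn, inhibited against control spanned -0.067 to 0.13 for Hoxa7, -0.29 to 0.32 for Hoxb9, -0.16 to 0.80 for Hoxb7 and -1.26 to 0.75 for Hoxa10. Deleted against control spanned -0.34 to 0.15 for Hoxb7, -1.85 to 0.52 for Hoxa10, -0.75 to 0.066 for Hoxa2 and -0.052 to 1.14 for Hoxa4. Without the deepest 5% of wells, inhibited against control was -0.073 for Hoxa7, -0.29 for Hoxb9 and 0.56 for Hoxa4, and deleted against control was -0.057 for Hoxc13. Without the top Hox wells, deleted against control was -0.14 for Hoxc13. These genes were at 0.225 to 6.34 CPM over all kept wells, and what part depth, single wells or plates had in these moves was not tested.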
